A study of Mus musculus with 6 samples.

Results

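The nuclear genes for the subunits of the oxidative phosphorylation complexes were followed in calvarial preosteoblasts, the precursors of bone-forming osteoblasts. Members were taken by gene symbol: rows beginning with Nduf and 1 of the letters a, b, c, s or v followed by a digit, Sdha to Sdhd, symbols beginning with Uqcr, Cyc1, symbols from Cox4 to Cox8, and symbols beginning with Atp5. This gave 86 of the 17001 rows of the deposited table, of which 37 were placed in complex I, 4 in complex II, 9 in complex III, 19 in complex IV and 17 in complex V. Ndufa4 and Ndufa4l2 were placed in complex IV, where the Ndufa4 protein is now known to reside. The 13 subunits encoded by mitochondrial DNA were not analysed here. GENCODE M21, on GRCm38, gave a position for 82 of the 86 members, which lie on 19 different chromosomes, so they do not all share a locus. Some lie close together, such as Ndufs8 at chr19:3908863-3912774 and Ndufv1 at chr19:4007384-4012806.

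Calvarial cells of pups aged 3 days were cultured in α-MEM with serum. The 3 control libraries came from Nell2 fx/fx mice and the 3 libraries labelled cKO from Col1-cre;Nell2 fx/fx mice, and both genotypes carry the floxed alleles. Cre is driven by a fragment of the mouse Col1a1 promoter, and the controls carry no Cre, so an effect of Cre itself and an effect of the floxed gene cannot be told apart. The labels do not say whether replicates are separate mice or separate cultures, so p-values measure only the spread between these libraries. That spread may be technical in part, and Y-linked expression, given below, differed between libraries within each group.

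Oxidative phosphorylation is carried out in the inner mitochondrial membrane. Complexes I and II pass electrons from NADH and succinate to ubiquinone, complex III passes them to cytochrome c, and complex IV, cytochrome c oxidase, passes them to oxygen. Complexes I, III and IV pump protons, and complex V, the ATP synthase, uses the proton gradient to make ATP. Osteoblast precursors draw on both glycolysis and respiration, and several complex IV subunits exist as a ubiquitous isoform and another that is typical of heart and skeletal muscle, lung, testis or cells at low oxygen.

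Values are FPKM, which divides the fragments of a gene by its transcript length and by the library total, so levels can be compared between genes per length. The deposited values carry no read counts, so the depth of each library is unknown; FPKM summed to 573307 to 606428 in the 6 libraries. Across the 11590 tested rows, Pearson's r between libraries was 0.982 to 0.994. Nell2 itself had an FPKM of 3.17, 2.59 and 1.88 in the control libraries and 5.64, 1.61 and 5.74 in the libraries labelled cKO, so it was not lower in the latter. A gene-level value does not separate the floxed part from the rest. The study checked the deletion in these cells by other means, qRT-PCR and western blotting, and reports that NELL2 was knocked out. Every direction given here therefore follows the labels. The 11 preosteoblast markers examined, Runx2, Sp7 and Col1a1 among them, summed to 17949 to 18772 FPKM in the controls and 18338 to 18569 in the libraries labelled cKO. The sum was almost all Col1a1, Col1a2 and Spp1. At an unadjusted p under 0.05 in limma, 6 of the 11 were lower in the libraries labelled cKO and 0 higher, each with no overlap: Ibsp, Bglap, Msx2, Sp7, Alpl and Prrx1, with log2 differences from -1.27 for Ibsp to -0.21 for Prrx1. Over all tested rows, 7.76% were lower and 5.37% higher at that level. Without overlap, 11.8% of all tested rows were lower and 6.51% higher. The 10 skeletal muscle markers summed to 52.4 to 103.9 and 68.9 to 85.3. Of the 7 adipocyte markers, 6 were listed, and they summed to 16.8 to 25.5 in the controls and 53.2 to 89.6 in the libraries labelled cKO, most of it Fabp4, while Adipoq, Plin1, Cidec and Ucp1 reached at most 0.39. The 2 tested, Fabp4 and Pparg, were higher in the libraries labelled cKO at an unadjusted p under 0.05 in limma. Neither overlapped, and the log2 differences were 1.68 and 0.35. The 4 epithelial markers summed to 0.46 to 13.2 and 15.9 to 42.5. All 3 that were tested were higher in the libraries labelled cKO at an unadjusted p under 0.05 in limma. The log2 differences were 2.48 for Krt18, 2.31 for Krt8 and 0.9996 for Epcam. Of these, Krt8 overlapped between the groups, and Epcam reached at most 1.58 FPKM. The sums of macrophage, endothelial and cartilage markers overlapped between the groups, but 3 of the 5 cartilage markers were higher in the libraries labelled cKO at an unadjusted p under 0.05 in limma, with log2 differences of 0.65 for Comp, 0.50 for Acan and 0.45 for Col9a1. Of the macrophage and endothelial markers tested, 0 reached that level, and 1 of the 5 erythroid markers was listed, at 0.2 or less. The 4 Y-linked genes Ddx3y, Eif2s3y, Kdm5d and Uty summed to 49.6 to 54.7 FPKM in control replicate 3 and in replicates 1 and 3 labelled cKO, and to at most 0.29 in the other libraries. The part of these markers in the results below was not tested, apart from Y-linked expression, which was also fitted as a covariate.

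Among the 83 members that passed the filter given below, the ATP synthase had the highest median level. The highest single members were in complex IV: Cox6a1 at 687, Cox7c at 677 and Cox4i1 at 645. The median of the mean FPKM over the 6 libraries was 364 for the 17 of complex V, 183 for complex IV, 109 for complex III, 105 for complex I and 92.7 for complex II. The complex IV median includes 5 tested tissue isoforms, and its 12 other genes ranged from 139 to 687. The order of complexes IV and V by median therefore depends on these isoforms. In complex V the tested members ranged only from 150 for Atp5pb, a peripheral stalk subunit, to 625 for Atp5md, a small membrane subunit. Complex I spanned more, from 15.3 for Ndufa11 to 527 for Ndufa3, both accessory subunits. Complex II ran from 58.1 for Sdha, which holds the flavin, to 98.6 for Sdhc, a membrane anchor. In complex III the lowest was Uqcrq at 52.4 and the highest Uqcrh, the hinge protein, at 405. Complex IV had the widest range, from 2.05 for Cox6a2, the heart and muscle isoform of subunit 6A, to 687 for its ubiquitous counterpart Cox6a1.

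**Figure D1:**
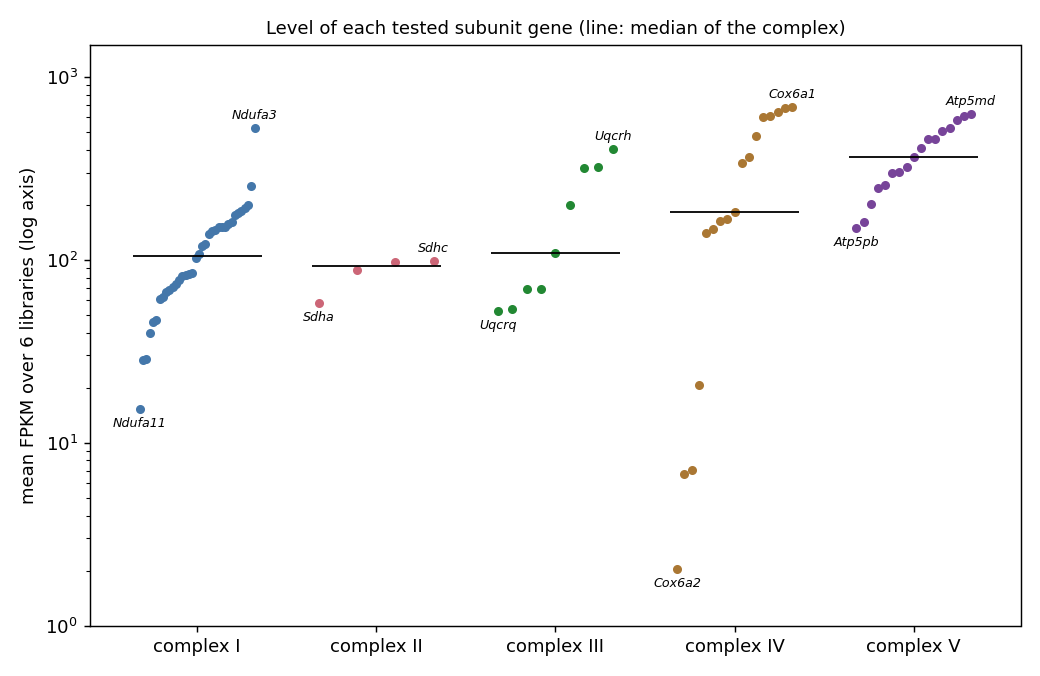
Mean FPKM of each tested member over the 6 libraries, on a log axis, with 1 point per gene and the members grouped by complex I to V. Complex V members lay between 150 and 625, while complex IV members ran from 2.05 to 687.

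To be tested, a row needed 3 or more libraries with FPKM 1 or higher, which held for 83 of the 86 members. Cox8b, the heart and muscle isoform of subunit 8, was listed at 0.66, 0 and 0 in the controls and 0, 1.53 and 1.28 in the libraries labelled cKO. Cox7b2 was listed at 0.22 in control replicate 3 and at 0 elsewhere, and Ndufb4b at 1.01 in control replicate 2 and at 0 elsewhere. Another row is uncertain for a different reason. Ndufb4c is annotated in GENCODE M21 as a processed pseudogene on chr15:73809507-73809896 of GRCm38, minus strand, and it was identical to all 387 coding bases of Ndufb4, so reads of the 2 genes cannot be told apart by sequence there. The sum of both rows was 251 ± 12.04 FPKM (SD, n = 3) in the controls, while the libraries labelled cKO had 230 ± 19.9 (SD, n = 3). The other paralogs compared shared between 67.5% and 84.3% of their aligned coding bases.

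Upstream sequences of 4 members are shown: the ubiquitous subunits Cox6a1 and Atp5k, whose 250 bases before the annotated start hold the core motif of NRF1, a factor known to act on respiratory chain genes, and the isoform pair Cox7a2 and Cox7a1, whose upstream bases hold none of the 4 motifs searched. Sequences are from RefSeq on GRCm38.p6, written 5′ to 3′ on the gene's strand. Cox6a1 lies at chr5:115348959-115349208, Atp5k at chr5:108434400-108434649 and Cox7a2 at chr9:79759854-79760103, all on the minus strand, and Cox7a1 at chr7:30183921-30184170 on the plus strand. Capitals mark the NRF1 core GCGCATGC and its reverse complement, which overlap.
Cox6a1: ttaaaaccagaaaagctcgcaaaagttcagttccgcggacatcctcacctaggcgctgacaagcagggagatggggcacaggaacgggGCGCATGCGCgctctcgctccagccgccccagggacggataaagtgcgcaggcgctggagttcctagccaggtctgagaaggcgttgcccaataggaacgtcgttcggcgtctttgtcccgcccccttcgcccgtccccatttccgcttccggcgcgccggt
Atp5k: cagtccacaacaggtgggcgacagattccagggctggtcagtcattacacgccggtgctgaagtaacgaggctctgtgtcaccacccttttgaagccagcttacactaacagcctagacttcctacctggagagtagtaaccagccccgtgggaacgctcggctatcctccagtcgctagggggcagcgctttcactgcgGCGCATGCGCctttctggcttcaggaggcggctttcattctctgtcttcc
Cox7a2: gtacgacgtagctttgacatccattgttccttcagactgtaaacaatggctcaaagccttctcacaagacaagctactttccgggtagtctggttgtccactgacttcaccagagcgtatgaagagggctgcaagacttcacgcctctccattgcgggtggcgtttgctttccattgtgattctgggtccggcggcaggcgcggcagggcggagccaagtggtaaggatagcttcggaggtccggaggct
Cox7a1: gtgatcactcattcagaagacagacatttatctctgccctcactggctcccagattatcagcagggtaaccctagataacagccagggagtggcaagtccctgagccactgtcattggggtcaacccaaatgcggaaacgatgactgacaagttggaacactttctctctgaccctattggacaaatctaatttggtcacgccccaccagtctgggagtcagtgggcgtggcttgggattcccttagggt

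Promoters of 300 bases, from 250 before to 50 after the annotated start, were at hand for 69 members in 74 windows, and not for others, among them Sdhc, Ndufa2, Uqcrq, Ndufb4c, Cox4i2, Uqcrb, Cox4i1, Atp5a1, Ndufb9, Atp5mpl, Ndufa4l2, Cox6a2, Cyc1, Ndufs1, Cox6c and Uqcrc2. Both strands were searched for 4 motifs. The NRF1 core GCGCATGC was in 10 of the 74 windows (13.5%), in 5.22% of the windows of all tested genes and in 2.71% of all 32851 promoters of that length. The YY1 core AAGATGGCG was in 9.46% of the members' windows, in 3.05% of those of tested genes and in 1.4% of all. The ETS core ACTTCCGG, bound by factors such as GABP, was in 6.76% of the members' windows, in 8.21% of those of tested genes and in 3.89% of all. The TATA box TATAAA was in 12.2%, 6.98% and 13.6%. Most of the members' windows therefore held none of these exact letters, and a match is a description of the sequence, not a bound site.

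No subunit passed the test of the libraries labelled cKO against the controls. The comparison used log2(FPKM + 1), and differences below are on this log2 scale, libraries labelled cKO minus control; the scale understates the change of low genes. In limma with Benjamini-Hochberg adjustment, 0 of the 83 tested members and 0 of all 11590 tested rows (0%) had an adjusted p under 0.05, and the smallest adjusted p was 0.312. At an unadjusted p under 0.05 there were 1521 rows in all. Among the members, 12 were lower at that level, where 7.76% of all tested rows were, and 4 were higher, where 5.37% of all rows were. With 1 library left out, the lower count ran from 4 without control replicate 2 to 21 without cKO replicate 1, and the higher count from 1 to 8 without the same libraries. In bulk RNA, fewer cells of a type and less RNA per cell cannot be told apart.

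The differences were small and mostly of 1 sign. Of the 83 members, 59 were lower and 24 higher in the libraries labelled cKO. Negative differences thus made up 71.1% of the members and 55.8% of all tested rows. The median difference was -0.10 over the members and -0.02 over all tested rows. For the members it was -0.04 without cKO replicate 3 and -0.06 without control replicate 2. All 3 values lay below all controls for 25 members, a pattern found in 11.8% of all rows, and above all controls for 5, a pattern found in 6.51% of all rows. The 25 include the uncertain row Ndufb4c. The standard error had a median of 0.08 for the members as for all tested rows. For 75 of the 83 members the 95% interval of the difference stayed within 0.5 of 0 in either direction.

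**Figure D2:**
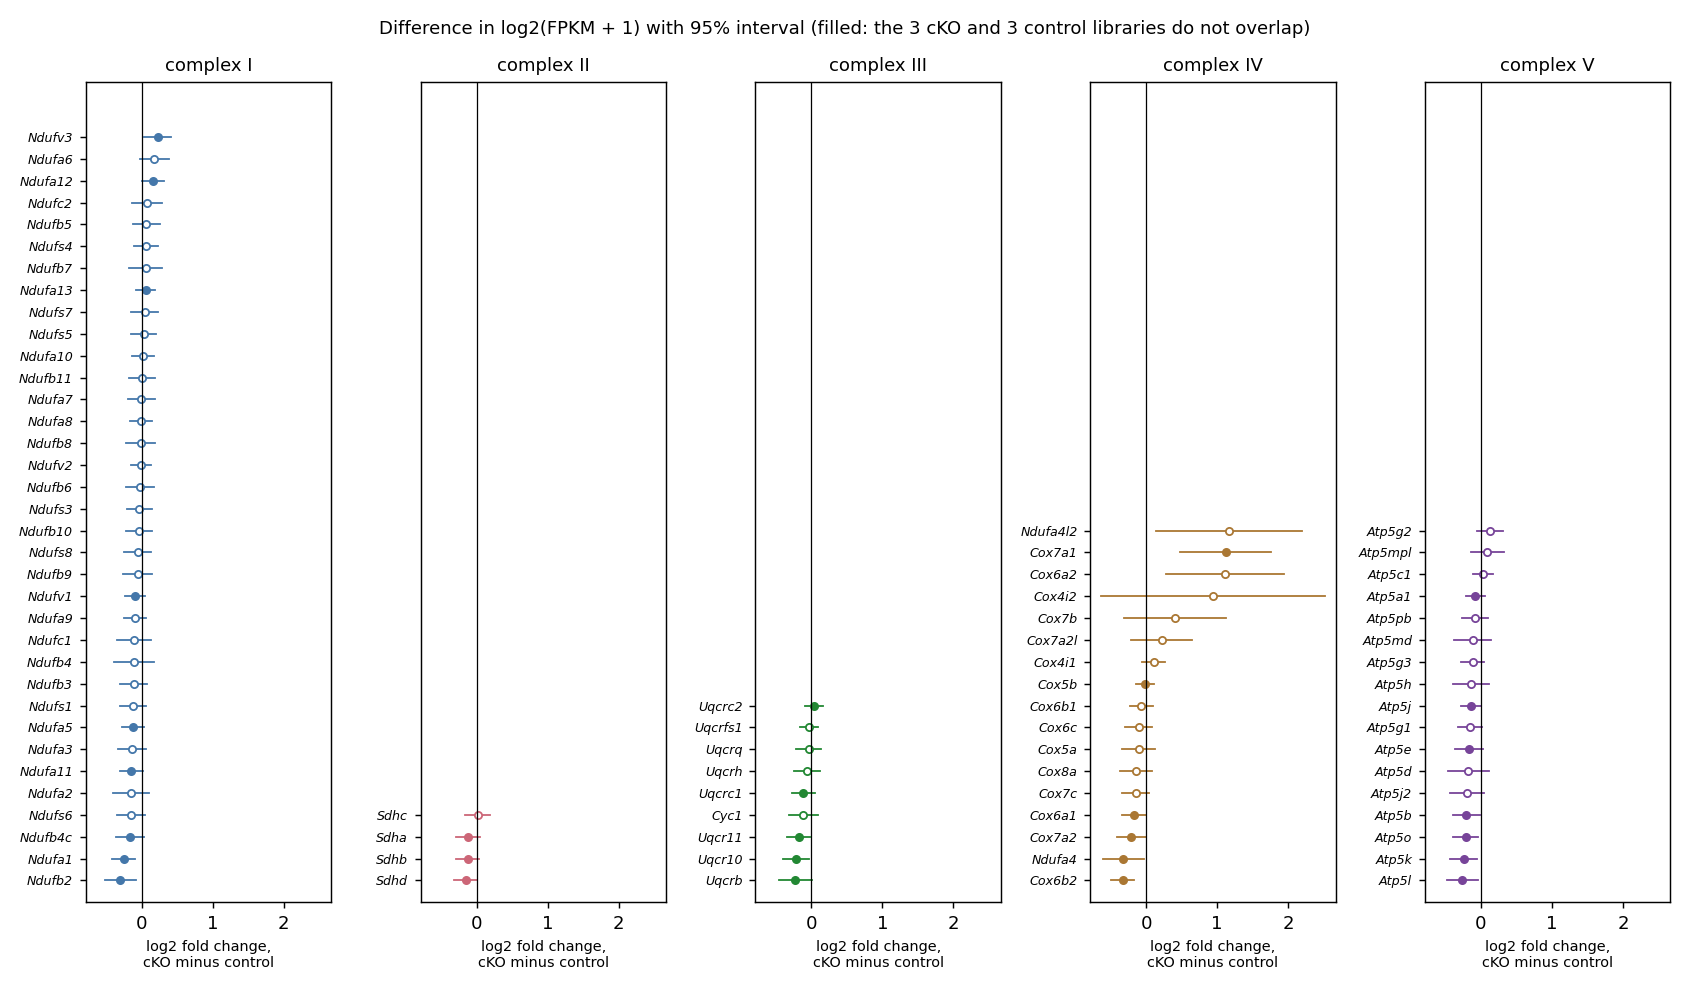
Difference in log2(FPKM + 1), libraries labelled cKO minus control, for the tested members shown, grouped by complex; points are estimates from limma and bars their 95% intervals. Most points lay below 0, and Ndufa4l2, Cox7a1, Cox6a2 and Cox4i2 of complex IV lay at 0.94 or above.

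Complex I, the entry point for NADH, differed least. Its 36 tested members had a median difference of -0.03, with 24 lower and 12 higher, and the 7 core subunits that carry the flavin and iron-sulfur clusters had the same median of -0.03. None of these core subunits reached an unadjusted p under 0.05 in limma, and their differences ran from -0.12 for Ndufs1 to 0.04 for Ndufs7. Ndufv1, which binds NADH, was at 66.3, 64.5 and 63.1 FPKM in the controls and 58.1, 62.4 and 60.4 in the libraries labelled cKO. Its groups did not overlap, but the difference was only -0.10 (standard error 0.06).

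The larger differences in complex I were in accessory subunits, and they went in both directions. Ndufa1, an X-linked accessory subunit, was at 164, 154 and 176 FPKM in the controls and 136, 140 and 136 in the libraries labelled cKO, and all 3 of the latter lay below all controls. Its difference was -0.26 (standard error 0.07, limma's Benjamini-Hochberg adjusted p = 0.312). Ndufb2 was at 50.5, 58.8 and 47.5 in the controls and 44.6, 40.4 and 41.0 in the libraries labelled cKO. The groups again did not overlap, with a difference of -0.30 (standard error 0.09, adjusted p = 0.312). Ndufv3, which exists in a short and a long splice form that this table does not separate, pointed the other way. It was at 165, 160 and 158 in the controls and 169, 195 and 202 in the libraries labelled cKO, a difference of 0.22 (standard error 0.08, adjusted p = 0.338). Ndufa12 was also higher in all 3 libraries labelled cKO, at 41.9, 41.0 and 43.2 against 40.2, 36.1 and 37.0. In all, 6 of the 36 lay wholly below the controls and 3 wholly above, near the shares over all tested rows, 11.8% and 6.51%. The 6 include the uncertain row Ndufb4c, while Ndufb4 and the sum of both rows overlapped between the groups. Without cKO replicate 3 the median of complex I was 0.00081.

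Complex II, succinate dehydrogenase, links the respiratory chain to the citric acid cycle. All 4 of its genes were tested, 3 of them lay wholly below the controls (11.8% of all tested rows did), and 0 reached an unadjusted p under 0.05 in limma. Sdhd, a membrane anchor, was at 91.9, 97.1 and 89.6 FPKM in the controls and 89.0, 81.0 and 80.4 in the libraries labelled cKO. Its difference of -0.15 (standard error 0.07) was the largest of the 4 in size. Sdhb, the iron-sulfur subunit, was at 101 ± 4.89 (SD, n = 3) in the controls and 92.9 ± 4.61 (SD, n = 3), and Sdha at 60.5 ± 1.66 and 55.8 ± 3.82. Sdhc was at 98.2 ± 8.36 and 98.9 ± 1.08, a difference of 0.01 whose sign changed with the scaling of the libraries, with Y-linked expression as a covariate and with 1 library left out.

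Complex III, ubiquinol-cytochrome c reductase, was lower in 8 of its 9 members, with a median difference of -0.11. The largest difference was that of Uqcrb, a small subunit named after its values were seen, at -0.22 (standard error 0.10) with no overlap. Uqcr10 and Uqcr11, also small subunits, had the smallest p-values, while the small subunits Uqcrh and Uqcrq had differences of -0.07 and -0.04. Uqcr10 was at 327, 374 and 336 FPKM in the controls and 293, 312 and 286 in the libraries labelled cKO, with no overlap between the groups. Its difference was -0.22 (standard error 0.08, limma's Benjamini-Hochberg adjusted p = 0.321). Uqcr11 was at 317, 354 and 343 against 309, 289 and 296, a difference of -0.18 (standard error 0.07, adjusted p = 0.348). The subunits that carry electrons did not reach an unadjusted p under 0.05 in limma. Cyc1, cytochrome c1, was at 56.4 ± 5.38 (SD, n = 3) and 51.9 ± 2.93 (SD, n = 3), and Uqcrfs1, the Rieske iron-sulfur protein, at 69.7 ± 1.33 and 68.1 ± 0.79. The core proteins split. Uqcrc1 was at 113 ± 6.50 in the controls and 104 ± 3.48 in the libraries labelled cKO, while Uqcrc2 was at 68.3 ± 1.11 and 70.1 ± 0.39, the only member of complex III that lay wholly above the controls. Without control replicate 2, the highest library for 34 of the 83 members, the median of complex III was -0.04.

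Complex IV held the largest differences of all members, and they were in its tissue isoforms. The 12 complex IV genes outside these isoforms had a median difference of -0.10, with 9 lower and 3 higher, within the range of the other complexes. Of the core-bound subunits Cox4i1, Cox5a and Cox5b, 0 reached an unadjusted p under 0.05 in limma. Cox4i1 was at 621 ± 27.5 FPKM (SD, n = 3) in the controls and at 669 ± 34.4 in the other group (SD, n = 3), and Cox5b, which binds zinc, was at 341 ± 5.39 and 335 ± 1.97. Cox5a was at 170 ± 19.9 and 158 ± 9.15. Cox6a1, whose upstream bases are printed above, was at 725, 777 and 685 in the controls and 676, 636 and 623 in the libraries labelled cKO. Its groups did not overlap, with a difference of -0.18 (standard error 0.07). Cox7b, named after its values were seen, had the largest standard error (0.30) of the 12 on the log2 scale, at 113, 145 and 109 in the controls and 220, 197 and 96.8 in the libraries labelled cKO.

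Ndufa4l2, a paralog of Ndufa4 known to be induced by the hypoxia factor HIF-1, and Ndufa4 differed in opposite directions, most in 2 of the 3 libraries labelled cKO. Ndufa4l2 was at 104, 83.8 and 125 FPKM in the controls and 109, 327 and 346 in the libraries labelled cKO. Replicate 1 labelled cKO lay among the controls, and the other two stood far above them. Ndufa4 was at 389, 410 and 412 in the controls and 383, 319 and 275 in the libraries labelled cKO, with no overlap. Ndufa4l2 thus made up 17.0% to 23.4% of the pair in the controls and 22.2%, 50.6% and 55.8% in the libraries labelled cKO. The differences were 1.16 (standard error 0.43, adjusted p = 0.343) for Ndufa4l2 and -0.32 (standard error 0.12, adjusted p = 0.342) for Ndufa4 in limma with Benjamini-Hochberg adjustment. The log2 ratio of the pair was 1.49 higher in the libraries labelled cKO, with a two-sided exact permutation p of 0.2, where 3 libraries against 3 allow no p below 0.1.

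Cox4i2, the isoform of subunit 4 found in lung and at low oxygen, and Cox6a2 followed the same libraries. Cox4i2 was at 3.38, 2.89 and 3.97 FPKM in the controls and 1.61, 17.4 and 11.4 in the libraries labelled cKO, so replicate 1 was the lowest of all 6 libraries and replicates 2 and 3 the highest. It stayed a small part of its pair, at 0.44% to 0.66% of Cox4i1 and Cox4i2 together in the controls and at most 2.43% in the libraries labelled cKO. Cox6a2 was at 0.72, 0.60 and 1.20 in the controls and 1.18, 4.81 and 3.78 in the libraries labelled cKO. Both were low genes, and their differences of 0.94 (standard error 0.66) and 1.11 (standard error 0.35) did not pass limma's test.

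Cox7a1 and Cox6b2 separated the groups in all libraries, in opposite directions. Cox7a1, the heart and muscle isoform of subunit 7A, was at 3.19, 6.82 and 2.82 FPKM in the controls and 11.1, 8.15 and 10.6 in the libraries labelled cKO. Its difference was 1.12 (standard error 0.27, limma's Benjamini-Hochberg adjusted p = 0.312). The ubiquitous Cox7a2 was at 150, 149 and 149 against 140, 133 and 114, also with no overlap and in the other direction. Cox7a1 made up 1.86% to 4.37% of the pair in the controls and 5.76% to 8.48% in the libraries labelled cKO, and the log2 ratio of the pair differed by 1.53 (two-sided exact permutation p = 0.1, the smallest possible). The summed adipocyte and epithelial markers given above also lay wholly above the controls in the libraries labelled cKO, while the summed muscle markers overlapped, and their part in the Cox7a1 difference was not tested. Cox6b2, the testis isoform of subunit 6B, was at 22.0, 24.6 and 22.5 in the controls and 17.5, 18.9 and 17.9 in the libraries labelled cKO, a difference of -0.33 (standard error 0.07, adjusted p = 0.312). Its log2 ratio to Cox6b1 was lower by 0.28 (two-sided exact permutation p = 0.1). Over the 8 isoform ratios computed, Benjamini-Hochberg adjustment of the exact p-values gave 0.267 for the 6 smallest and 0.4 for the others.

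**Figure D3:**
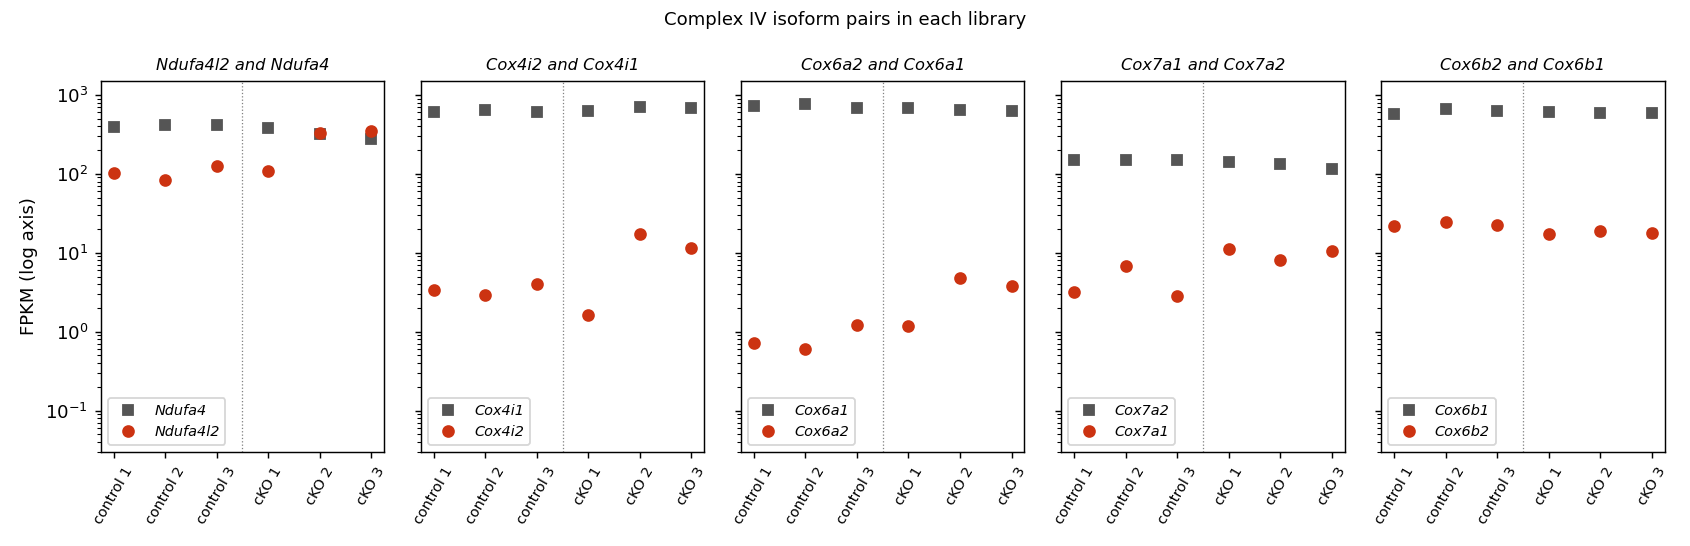
FPKM on a log axis in each of the 6 libraries for 5 isoform pairs of complex IV, with squares for the ubiquitous gene and circles for the tissue isoform. Ndufa4l2, Cox4i2 and Cox6a2 were highest in replicates 2 and 3 labelled cKO, and Cox7a1 was higher in all 3 libraries labelled cKO than in the controls.

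Leaving out replicate 1 labelled cKO changed the calls. Without it, 334 of 11522 tested rows (2.9%) had an adjusted p under 0.05 in limma with Benjamini-Hochberg adjustment, and 3 of these were members. These were Ndufa4l2, with a difference of 1.70 (standard error 0.16, adjusted p = 0.0170), Cox4i2, with 1.78 (standard error 0.18, adjusted p = 0.0171), and Cox6a2, with 1.53 (standard error 0.16, adjusted p = 0.0171). Ndufa4 came to -0.44 (adjusted p = 0.0572). No member was called when any other library was left out.

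In complex V, the ATP synthase, 14 of 17 members were lower in the libraries labelled cKO, 7 of them with no overlap (11.8% of all tested rows), and the median difference of -0.14 was the lowest of the 5 complexes. The 5 subunits of the catalytic F1 head had a median of -0.17 and the other 12 members one of -0.14. In the head, Atp5b, the catalytic beta subunit, was at 557, 592 and 543 FPKM in the controls and 533, 484 and 451 in the libraries labelled cKO, with no overlap. Its difference was -0.21 (standard error 0.08, limma's Benjamini-Hochberg adjusted p = 0.358). Atp5a1, the alpha subunit, was at 305 ± 7.80 (SD, n = 3) and 288 ± 4.90 (SD, n = 3), and Atp5c1, the gamma subunit that turns in the head, at 199 ± 3.11 and 203 ± 8.05.

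The membrane subunits Atp5k and Atp5l, the e and g subunits that help ATP synthases pair into dimers, differed most in complex V. Atp5k was at 650, 621 and 625 FPKM in the controls and 592, 521 and 491 in the libraries labelled cKO. Atp5l was at 529, 575 and 549 in the controls and 485, 491 and 404 in the libraries labelled cKO. Neither gene overlapped between the groups, and the differences were -0.25 (standard error 0.08) and -0.26 (standard error 0.09), with adjusted p values of 0.32 and 0.321 in limma with Benjamini-Hochberg adjustment. Atp5mpl, another small membrane subunit, was at 394 ± 49.9 (SD, n = 3) and 418 ± 9.83 (SD, n = 3), a difference in the other direction that was within the spread.

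Subunit c, which forms the rotor ring, is made from 3 genes that encode the same mature protein, so their shares can be read within a library. Atp5g3 gave 43.4% to 49.0% of their summed FPKM, Atp5g2 34.1% to 41.3% and Atp5g1 15.2% to 17.7%. Atp5g2 was at 331, 341 and 369 FPKM in the controls and 353, 399 and 389 in the libraries labelled cKO, a difference of 0.13 (standard error 0.08). Atp5g3 was at 474, 483 and 470 against 472, 420 and 424, and Atp5g1 at 163, 177 and 167 against 164, 148 and 146. The log2 ratio of Atp5g2 was higher by 0.25 to Atp5g3 and by 0.28 to Atp5g1, each with a two-sided exact permutation p of 0.2. Here too, replicate 1 labelled cKO lay among the controls.

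As a share of all FPKM, the 86 members held 3.12%, 3.23% and 3.14% of the control libraries and 3.10%, 2.93% and 2.87% of the libraries labelled cKO. The groups did not overlap, but replicate 1 labelled cKO was closer to the lowest control than to the other two. Complex V gave 1.14%, 1.17% and 1.15% in the controls and 1.13%, 1.02% and 0.99% in the libraries labelled cKO. Replicate 3 labelled cKO was the lowest library for 38 of the 83 tested members. Within groups, the standard deviation of a member had a median of 0.09 on the log2 scale, and that of all tested rows was 0.10.

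Members have short transcripts, and this was set beside the direction. The principal transcript had a median of 759 bases in the 80 members with a length and of 2916 bases over the tested genes. The 52 members under 1000 bases had a median difference of -0.10, and the 28 longer ones -0.03. Tested genes under 1000 bases outside the members, 668 in number, had a median of -0.01, and the 194 of these with a mean FPKM of at least 100 had one of 0.003. Of the members under 1000 bases, 30.8% lay wholly below the controls and 1.92% wholly above. For the longer members these shares were 28.6% and 14.3%, and for the 668 other short genes 9.58% and 6.74%.

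Other genes of the pathway were counted in the same fit. Of 47 tested assembly factors, which build the complexes without staying in them, 1 was higher and 2 were lower at an unadjusted p under 0.05 in limma, with a median difference of -0.04. Over all tested rows 5.37% were higher and 7.76% lower at that level, so these counts were below the background. Uqcc2, needed for complex III assembly, was at 243, 259 and 248 FPKM in the controls and 218, 213 and 182 in the libraries labelled cKO (difference -0.30, standard error 0.08), and Cox18, which inserts a complex IV core subunit into the membrane, had a difference of -0.27. Of 14 genes for electron carriers, ubiquinone synthesis and subunits outside the symbol rule, 3 were lower and 0 higher, with a median of -0.05. Coq7 and Pdss1, both enzymes of ubiquinone synthesis, had differences of -0.20 and -0.29. Among 21 citric acid cycle and pyruvate dehydrogenase genes, 5 were lower and 1 higher, the median was -0.12, and 10 lay wholly below the controls, as did 11.8% of all tested rows. Idh3a, a subunit of isocitrate dehydrogenase, was at 21.4, 21.0 and 20.5 against 18.9, 17.6 and 17.5. Pdk1, the kinase that inhibits pyruvate dehydrogenase, was at 19.8, 17.1 and 17.5 against 19.3, 29.8 and 30.8, again with replicate 1 labelled cKO among the controls.

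Regulators of mitochondrial biogenesis, among them Nrf1, Tfam and Esrra, had 0 of 13 tested genes at an unadjusted p under 0.05 in limma and a median difference of 0.03. Polg, the mitochondrial DNA polymerase, had the smallest p in that list, with a difference of -0.15 (standard error 0.07). Tfb2m, a mitochondrial transcription factor, came next, at 10.8 ± 0.58 FPKM (SD, n = 3) in the controls and at 11.9 ± 0.60 in the other group (SD, n = 3). Of the 78 mitochondrial ribosomal proteins, 4 were lower and 2 higher, with a median of -0.03, also below the shares of 7.76% and 5.37% over all rows; Mrpl18 and Mrpl51 had differences of -0.33 and -0.25. The 82 tested cytosolic ribosomal proteins pointed the other way, with 3 higher, 0 lower and a median of 0.07. Rpl10a and Rps18 had differences of 0.29 and 0.25. Of these lists, glycolysis stood furthest from the subunits, with 11 of 17 genes higher, 0 lower and a median of 0.35. Slc2a1, the glucose transporter, was at 34.2, 34.7 and 33.8 FPKM in the controls and 42.4, 55.9 and 63.0 in the libraries labelled cKO, and Hk2 was at 9.99, 11.0 and 10.1 against 12.1, 13.5 and 15.1. The median centred log2 value of the glycolysis genes was -0.04, -0.14 and -0.25 in the controls. It was -0.05, 0.18 and 0.32 in the libraries labelled cKO, so by this median replicate 1 lay within the control range. Even so, 10 of the 17 genes, Slc2a1 and Hk2 among them, lay wholly above the controls and 1 wholly below. These patterns were found in 6.51% and 11.8% of all tested rows. No gene of these lists had an adjusted p under 0.05 in limma.

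**Figure D4:**
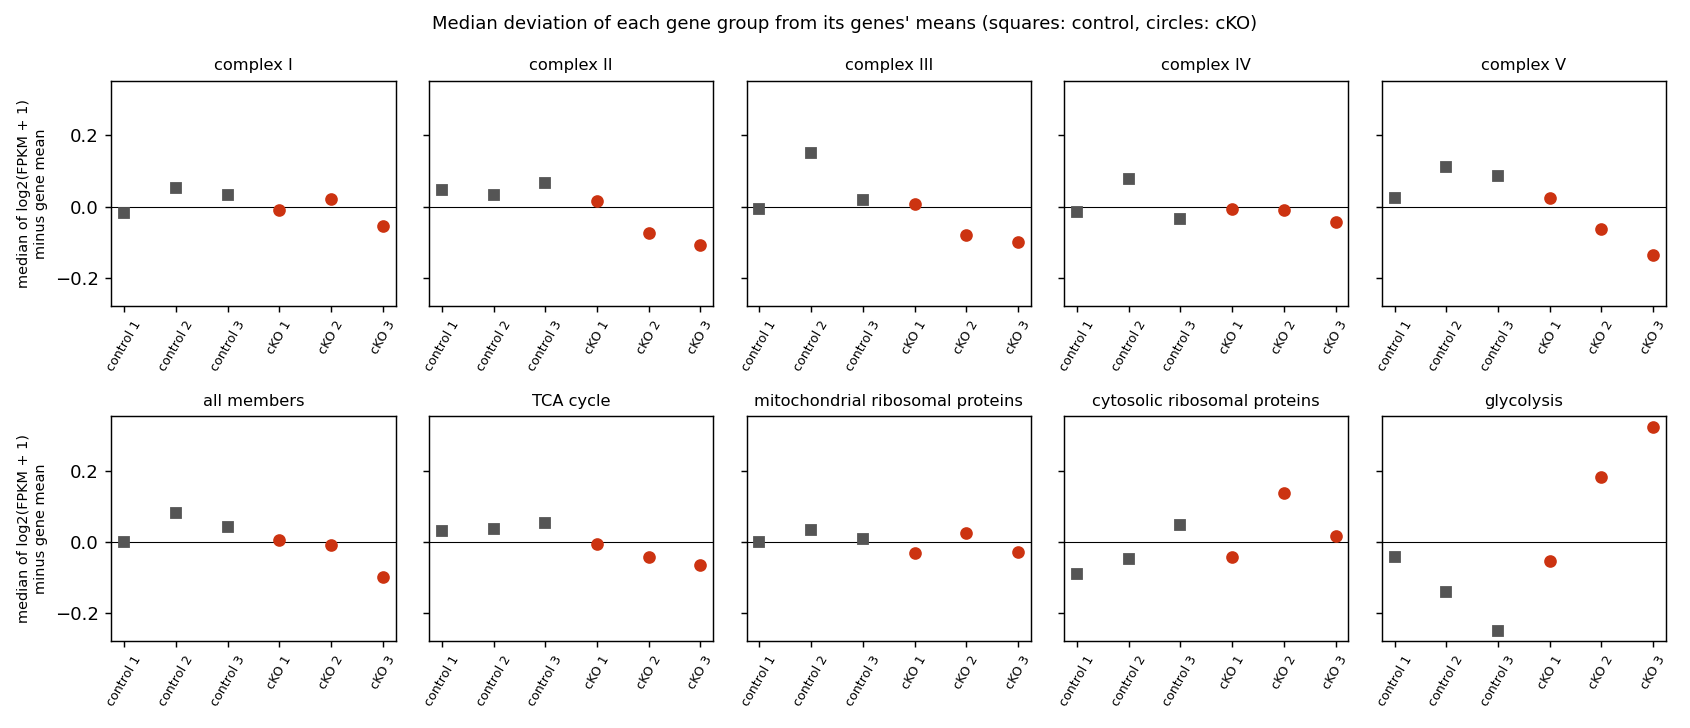
Median of log2(FPKM + 1) minus the gene's mean, in each of the 6 libraries (squares for control, circles for the libraries labelled cKO), over the tested genes of each complex, all members, the citric acid (TCA) cycle, both sets of ribosomal proteins and glycolysis. Complexes II, III and V were lowest in replicates 2 and 3 labelled cKO, where complex V reached -0.14 in replicate 3, and glycolysis was highest in the same 2 libraries, at 0.18 and 0.32.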

How the data were processed

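RNA enriched for poly(A) from calvarial preosteoblasts was sequenced in 3 control libraries and 3 libraries labelled cKO. Per the labels and the study's methods, paired-end reads of 150 bp were aligned by the authors in HISAT2, and the submitters' processing notes name GRCm38 as build and DESeq as a tool; the annotation and the program that computed expression are not given in the sources used here. The authors deposited FPKM, 1 value for each symbol in each library, rounded to 2 decimals and carrying no depth, so no counting error could be given. All columns of values per sample were used, and 0 were left out.

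Rows that reached FPKM 1 in 3 or more libraries were tested on log2(FPKM + 1), two-sided and without covariate over all 6 libraries, by lmFit and eBayes of limma 3.58.1 (R 4.3.3), with Benjamini-Hochberg adjustment over all tested rows. The fit was tested on simulated data. Isoform pairs were compared by an exact permutation test of log2 ratios. Gene positions and transcript lengths came from GENCODE M21 and promoters from RefSeq, both matched by symbol. The members, gene lists and markers were chosen with earlier results of these data known. Named genes are Nell2; in each complex the highest and lowest members, the catalytic core, the isoform pairs and the 2 smallest unadjusted p-values in each direction; members outside the filter; and the 2 smallest p-values of each list. Alternatives were the filter, the pseudocount, a variance trend, scaling between libraries, the replicate block, each library left out and, added after seeing the data, Y-linked expression as a covariate. The values of 1 member are not reported here.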

Additional observations from a re-analysis of the deposited data

How the results depend on the processing

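With all 6 libraries, 0 members and 0 genes had an adjusted p under 0.05 in limma under every alternative of filter, pseudocount, variance trend, scaling, replicate block and Y-linked covariate. Without 1 library the genes called ran from 0 to 334 and the members called from 0 to 3. Members lower at an unadjusted p under 0.05 numbered 4 to 21 and those higher 1 to 8; a covariate for Y-linked expression, chosen after seeing the data, left 7 lower. Under alternatives with all libraries, the median difference of the members stayed between -0.11 and -0.06, and no complex changed sign. Without 1 library it was -0.110 to -0.0448 for the members, -0.137 to -0.0393 for complex III, -0.114 to -0.0197 for complex IV and -0.0622 to 0.00081 for complex I, which changed sign without cKO replicate 3.

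Signs changed only for named members near 0. Ndufv2 was at 0.0172 after quantile normalization, and Sdhc at -0.000602 with libraries scaled to 1 FPKM total and -0.0211 with the Y-linked covariate. Without 1 library the range was -0.00522 to 0.0472 for Atp5c1, -0.0752 to 0.0216 for Ndufs3, -0.0161 to 0.0948 for Ndufs7, -0.0335 to 0.00914 for Ndufv2, -0.0476 to 0.0742 for Sdhc and -0.0889 to 0.00488 for Uqcrq. Scaling moved the median of all genes by at most 0.01. The cause of these changes was not tested.

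The labels do not say whether same-numbered replicates belong together. The correlation of same-numbered deviations was 0.03, -0.17 and 0.21, with a mean of -0.01 over the other pairs. So few libraries cannot settle whether the numbers pair the samples. With the replicate block, 0 members were called and 1465 genes had an unadjusted p under 0.05. The FPKM values carry no depth, so how much of the spread of low members such as Cox6a2 is counting error is unknown.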
